A study of Mus musculus with 81 samples.

Results

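This report compares the 2 germ cell populations of the control testis, P5 and P4, in F3 mice of the DMSO lineage, over all annotated LTR loci. The comparison takes the 8 libraries labelled as F3, DMSO and P4 or P5, which are 4 libraries of each population, of 81 samples in the whole series. The mice were third-generation descendants of F0 dams that drank the vehicle DMSO, which only the dams were given. The series also holds a lineage whose F0 dams drank 50 nM tributyltin (TBT), an organotin, and first-generation (F1) fetuses of both kinds of dam. All libraries came from E18.5 testes of OG2 mice, in which EGFP is driven by the germ cell promoter and enhancer of Pou5f1. Dissociated cells were sorted by flow cytometry, and the EGFP-positive germ cells were divided by side scatter into P4 and P5. EGFP-negative somatic cells formed a population called P6. The populations are therefore gates on a transgene and on light scatter, and not cell types isolated by a marker of their own. Libraries of both populations carry the replicate numbers 1 to 4, and libraries with the same number were compared as a pair. The labels do not say whether the numbers stand for separate animals or litters, so the p-values below speak at most of the spread between these libraries.

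Endogenous retroviruses are remnants of past germline infections. A complete copy has an internal region with viral genes between 2 long terminal repeats (LTRs) that hold the promoter and the signal for the end of the transcript, and most copies have recombined to a solitary LTR. In male fetal germ cells, DNA methylation is erased and then rebuilt around the end of gestation, and the piRNA pathway and histone methylation act against retroviral transcripts in this window. A copy in an intron is also read whenever unspliced RNA of its host gene is captured, so each locus is described here by its place, outside all genes, in an intron or in an exon of the GENCODE annotation. Strand was not used for this placement. A species is a RepeatMasker name, and names that end in int are internal regions.

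The table lists 970384 LTR loci of 680 species on GRCm38, of which 626329 (64.5%) lie outside genes. A read was recorded at 326584 loci in at least 1 of the 8 libraries. Counts summed over loci came to between 2755294 and 5476368 in the P4 libraries and between 1606422 and 8161548 in the P5 libraries, and the P5 libraries 1 and 2 had the fewest. Values are in CPM, reads relative to the size of the library after the authors' scaling, and 1 unit, the value of a single read in a library of median depth, was 0.264 CPM. Among neighbouring loci less than 5000 bases apart in the same gene, 49.0% of pairs held identical reads in all 8 libraries, against 2.13% of pairs outside genes. Loci of 1 intron are therefore not separate measurements, and the sums count such reads once for each locus. Pairs 1 and 2 stood apart from pairs 3 and 4 in several results, and values in pairs 3 and 4 alone are given beside several of them.

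Sequences are shown for 5 LTRs on which the results turn, each the copy with a large difference in its place in the genome. They were read from the GRCm38 plus strand, the MLT1F1 copy whole and the others for their first 300 bases. Capitals mark the letters AATAAA, a hexamer used as the signal for polyadenylation, and TATAAA, the letters of a TATA box, or their reverse complements TTTATT and TTTATA. Among LTR loci outside genes that are at least as long, 36.2% hold AATAAA and 25% hold TATAAA on either strand in a window of 300 bases, and 22.1% and 12.3% in a window of 141 bases. The MLT1F1 and MTC copies held TTTATA and the RLTR11A2 copy held AATAAA, and the other copies held none of these letters in the bases shown.
The MLT1F1 copy outside genes with no read in P4, chr3:130820636-130820776: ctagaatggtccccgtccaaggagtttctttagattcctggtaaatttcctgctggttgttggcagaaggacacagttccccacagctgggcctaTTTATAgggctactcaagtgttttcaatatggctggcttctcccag
The MTC copy in an intron of Clta with no read in P4, chr4:44010940-44011239: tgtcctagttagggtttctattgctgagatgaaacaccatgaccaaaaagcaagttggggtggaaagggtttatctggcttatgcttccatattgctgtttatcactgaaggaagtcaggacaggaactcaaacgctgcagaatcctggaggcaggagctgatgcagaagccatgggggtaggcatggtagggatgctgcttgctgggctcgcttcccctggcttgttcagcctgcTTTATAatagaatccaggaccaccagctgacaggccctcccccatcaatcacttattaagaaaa
The RLTR11A2 copy outside genes with no read in P5, chr1:182688230-182688529: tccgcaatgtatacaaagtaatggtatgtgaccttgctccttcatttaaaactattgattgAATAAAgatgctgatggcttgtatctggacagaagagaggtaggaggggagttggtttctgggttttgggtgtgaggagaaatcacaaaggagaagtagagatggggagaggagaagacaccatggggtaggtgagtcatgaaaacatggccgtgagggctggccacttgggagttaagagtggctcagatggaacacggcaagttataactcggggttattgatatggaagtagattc
The MLT2B3 copy outside genes with a read in 1 P5 library, chr2:72873218-72873517: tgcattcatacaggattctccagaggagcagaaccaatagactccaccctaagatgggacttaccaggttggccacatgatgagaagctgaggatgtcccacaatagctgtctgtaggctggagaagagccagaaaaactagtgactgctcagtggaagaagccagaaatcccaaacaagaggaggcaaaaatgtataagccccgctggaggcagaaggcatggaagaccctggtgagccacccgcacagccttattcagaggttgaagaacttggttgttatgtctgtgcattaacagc
The MLTR14 copy in an intron of Runx3 with reads in 1 P5 library, chr4:135133726-135134025: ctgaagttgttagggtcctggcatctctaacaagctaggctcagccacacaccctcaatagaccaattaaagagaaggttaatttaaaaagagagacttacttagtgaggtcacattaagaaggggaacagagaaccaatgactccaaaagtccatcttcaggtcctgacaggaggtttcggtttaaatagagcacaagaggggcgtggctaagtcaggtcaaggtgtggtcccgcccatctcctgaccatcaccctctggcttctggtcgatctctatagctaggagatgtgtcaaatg

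The identity of the populations was checked first with marker genes, each measured through the LTR loci inside it. The germ cell genes Dazl, an RNA-binding protein, and Ddx4, a helicase, summed to 543 to 672 CPM and 610 to 1683 CPM in P4. In P5 they summed to 37.7 to 344 CPM and 177 to 1565 CPM, and in the somatic P6 libraries to 0 to 4.53 CPM and 1.78 to 36.2 CPM. Both populations therefore carried germ cell transcripts that P6 nearly lacked. The 13 Sertoli cell genes measured summed to 443 to 1107 CPM in P4, 193 to 803 CPM in P5 and 2650 to 4657 CPM in P6. The 9 Leydig cell genes summed to 168 to 267 CPM in P4, 41.2 to 280 CPM in P5 and 1750 to 1964 CPM in P6. Interstitial and peritubular genes, 16 in number, summed to 86.3 to 205 CPM, 131 to 336 CPM and 9537 to 11334 CPM in the same order. The Leydig cell and interstitial sums, and those of Sertoli cells, were thus below every P6 library in both germ cell populations. Endothelial sums overlapped with those of P6, with 85.5 to 258 CPM over 13 genes in P4, 115 to 278 CPM in P5 and 120 to 175 CPM in P6. Macrophage and blood genes, 10 in number, reached 13.3 to 35 CPM in P4, 23.1 to 92.0 CPM in P5 and 55.5 to 95.5 CPM in P6, so that P5 overlapped with P6 here as well. Among defining markers, Kdr was at 0 in all 8 germ cell libraries and Pdgfra, Csf1r and Dhh were at 0 in the P4 libraries. Other defining markers had reads in both populations. Pecam1 had 1.40 to 36.6 CPM in P4 and 11.8 to 19.2 CPM in P5, Flt1 had 15.0 to 29.0 and 11.3 to 65.2 CPM, Tek had 0 to 32.2 and 0.985 to 85.1 CPM, and the Sertoli cell gene Gata4 had 0 to 17.1 and 0 to 22.6 CPM. Their part in the differences between P5 and P4 was not tested. In these bulk samples, more cells with a transcript and more transcript per cell cannot be told apart.

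A larger part of the retroviral signal lay outside genes in P5 than in P4. In P4 libraries 1 to 4, loci outside genes held 4.74%, 5.10%, 2.58% and 3.19% of the signal, and in P5 libraries 1 to 4 they held 23.5%, 27.9%, 8.75% and 6.12%. Every P5 library was above every P4 library, and the P5 libraries 1 and 2 were far above the other two. The mean share was 3.90% ± 1.21 in P4 and 16.6% ± 10.8 in P5 (SD, n = 4 each), a difference of 12.7 percentage points ± 9.62 (SD over 4 pairs). It was higher in P5 in 4 of 4 pairs, with an exact paired permutation p of 0.13 (two-sided), the smallest that 4 pairs can give. Within pairs the share was between 1.92 and 5.48 times as large in P5. Pairs 3 and 4 alone gave 4.55 percentage points and pairs 1 and 2 alone gave 20.8.

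**Figure D1:**
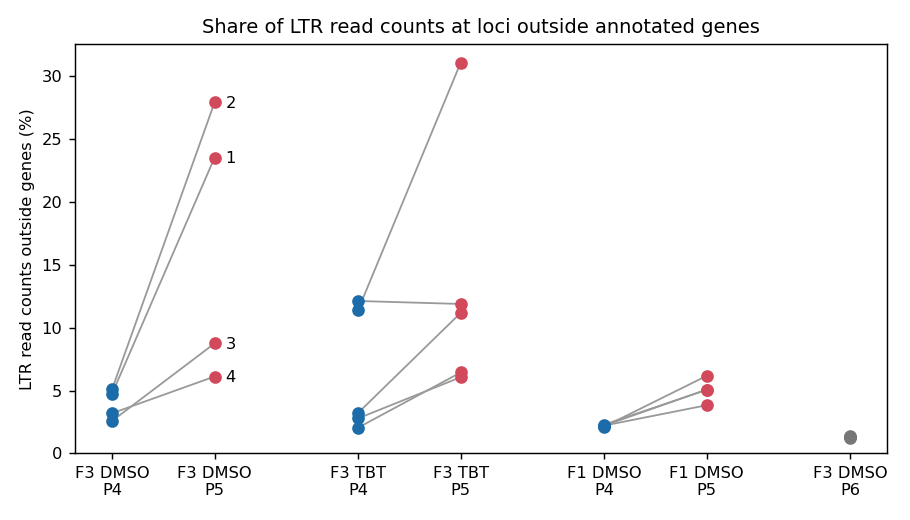
Share of the LTR signal, in percent, at loci outside genes, with 1 point for each library of P4 and P5 and lines joining libraries of the same number, in F3 DMSO, F3 TBT and F1 DMSO, beside the somatic P6 libraries of F3 DMSO. In the F3 DMSO libraries all 4 lines rise, from between 2.58% and 5.10% in P4 to between 6.12% and 27.9% in P5.

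Introns held correspondingly less of the signal in P5. Their share was 88.1% ± 1.76 in P4 and 75.3% ± 11.7 in P5, lower in P5 in 4 of 4 pairs (exact paired permutation p = 0.13, two-sided), while exons held 8.05% ± 0.567 and 8.10% ± 0.959 (exact paired permutation p = 0.875). The somatic P6 libraries of the same lineage had between 1.23% and 1.41% of their signal outside genes, less than any germ cell library. The strongest loci outside genes took a smaller part of that signal in P5. The 100 strongest loci outside genes took between 13.9% and 17.7% of it in P4, between 5.78% and 6.63% in P5 and between 41.4% and 49.1% in P6. Reads were recorded at 7118 to 19900 loci outside genes in P4 and at 20283 to 53322 in P5, with 126320 to 231895 reads outside genes in the P4 libraries and 275626 to 714096 in the P5 libraries, so the numbers of loci are not compared at equal depth.

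The classes of retrovirus took similar parts of the signal outside genes in both populations. The ERVK class, which holds the IAP and ETn families, took 46.8% ± 1.95 in P4 and 47.9% ± 2.49 in P5, higher in P5 in 4 of 4 pairs. The ERV1 class, which holds the murine leukaemia virus relatives, took 11.8% ± 0.772 and 12.1% ± 1.5, higher in 2 of 4 pairs. The ERVL class took 9.02% ± 0.955 and 8.35% ± 0.590, higher in 1 of 4 pairs, and the MaLR elements took 31.5% ± 1.23 and 31.1% ± 1.05, lower in P5 in 4 of 4 pairs. The exact paired permutation p lay between 0.13, the smallest possible with 4 pairs, and 0.625. By comparison, the classes made up 44%, 10.9%, 9.64% and 35% of all LTR bases outside genes. In CPM, ERVK loci outside genes went from 24324 ± 9479 in P4 to 71930.4 ± 41484 in P5, and MaLR loci from 16222 ± 5723 to 45355 ± 23871, each higher in P5 in 4 of 4 pairs.

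Summed by species outside genes, most retroviral species rose in P5. Of 546 species tested with limma, 352 (64.5%) were higher in P5 and 1 (0.183%) was lower at an FDR of 0.05, with a median log2 change of 1.57 over all species tested. Among internal regions 89 of 108 species were higher, with a median of 2.22, and among LTRs 263 of 438, with a median of 1.42. The P5 libraries lay above every P4 library in 183 species (33.5%) and below in 1 (0.183%). The count of higher species was 53 in pairs 3 and 4 alone and 346 in pairs 1 and 2 alone. These values carry the shift of the whole signal outside genes. When each library was scaled to its own total outside genes, an alternative chosen after seeing the data, 50 species were higher and 49 lower. In the F3 DMSO fits of species totals, limma replaced each species' own spread by one shared over species of like level. This held over all loci and outside genes. The limma p-values and SEs of single species therefore do not measure their own spread between libraries.

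The family with the highest median was that of IAP internal regions, active ERVK elements that still move in the mouse genome. Outside genes 6 of 8 tested species rose, with a median log2 change of 3.52. IAPEz-int, the largest of them, had 41.8, 16.1, 21.6 and 31.8 CPM outside genes in P4 libraries 1 to 4 and 2003, 1189, 853 and 320 CPM in P5 libraries 1 to 4. Every P5 library was far above every P4 library, with P5 library 1 the highest and P5 library 4 the lowest. Its log2 change was 5.09 ± 0.42 (SE; limma adjusted p = 2.11e-30). Its total over all loci did not pass the test, at -0.12 on the log2 scale, and the loci outside genes held 0.620% of its signal in P4 and 26.0% in P5. IAPEy-int outside genes went from 15.8, 15.2, 0.492 and 1.40 CPM to 379, 221, 82.0 and 40.2 CPM, a log2 change of 4.94 ± 0.70. IAPEY4_I-int, of the related IAPEY group, rose by 4.08 ± 0.58 on the log2 scale outside genes. Its P4 library 1 with 84.5 CPM was still slightly above P5 library 4 with 84.3 CPM.

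Among the other families, MYSERV elements rose in 3 of 3 species (median 2.52), ETn and MusD elements in 4 of 5 (2.46), VL30 elements in 4 of 5 (2.38), the IAPEY group in 8 of 9 (2.36) and the RLTR4 and murine leukaemia virus group in 3 of 3 (2.24). MuRRS-int, an ERV1 element related to murine leukaemia virus, rose from 67.5, 40.6, 16.5 and 53.0 CPM in P4 to 516, 622, 441 and 184 CPM in P5 outside genes, a log2 change of 3.34 ± 0.43. MERVL-int, the internal region of the element that marks the earliest embryonic cleavage stages, rose from 7.35, 7.82, 2.46 and 16.1 CPM to 209, 200, 158 and 104 CPM, a change of 4.48 ± 0.62. MMERVK10C-int rose from 537, 301, 310 and 156 CPM to 4603, 3032, 2426 and 884 CPM (2.98 ± 0.33). RLTR1B-int rose from 417, 302, 338 and 256 CPM to 1993, 1813, 1421 and 641 CPM (2.06 ± 0.33). In each of these 4 species the P5 libraries did not overlap with the P4 libraries, and P5 library 4 was the lowest of its group.

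**Figure D2:**
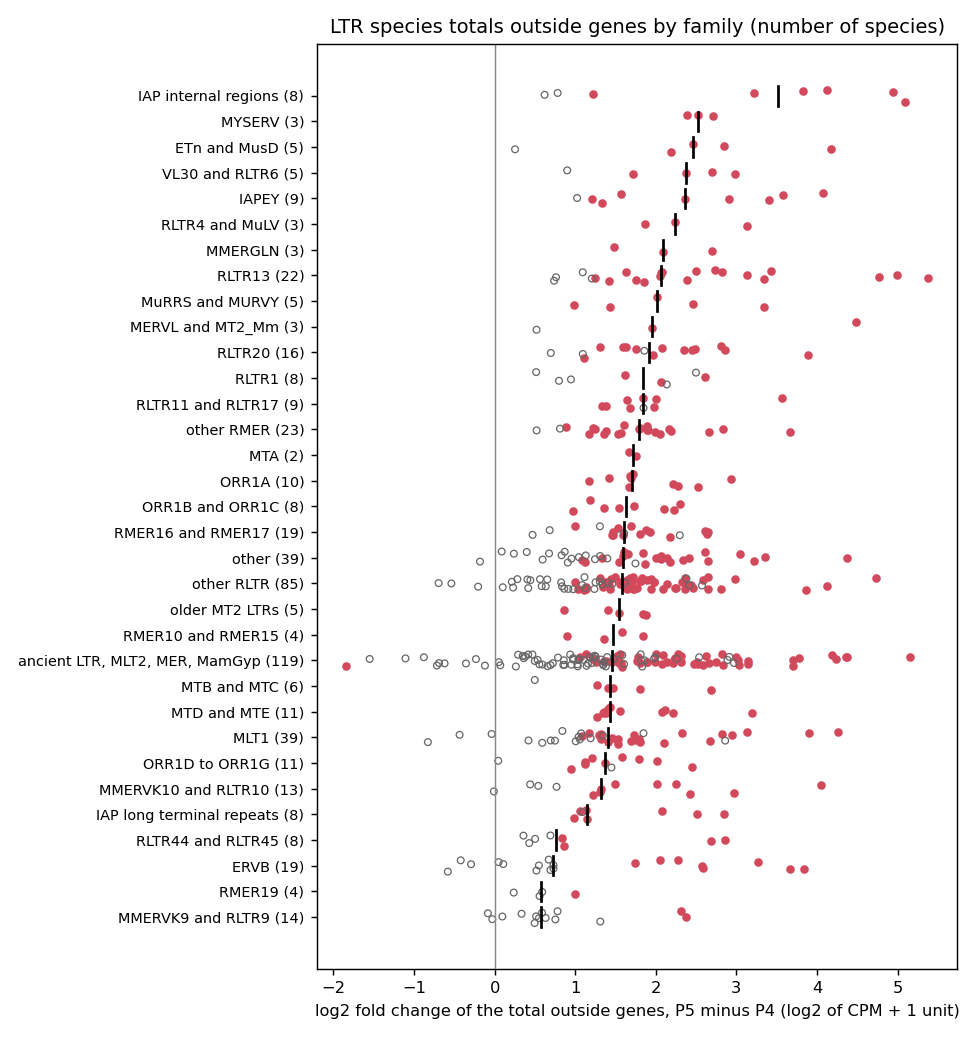
Log2 change of P5 against P4 of species totals outside genes, by family, with 1 point for each species tested (filled where it passed an FDR of 0.05, open where it did not) and a bar at the family median. IAP internal regions sit highest with a median of 3.52, and the MMERVK9 and RLTR9 family sits lowest with 0.57.

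Lower medians belonged to IAP long terminal repeats (7 of 8 species higher, median 1.14) and to MMERVK10 and RLTR10 (9 of 13, 1.32). Among the MaLR elements, which have long lost their coding capacity, ORR1A rose in 10 of 10 species (median 1.70), MTD and MTE in 11 of 11 (1.43) and MLT1 in 23 of 39 (1.41). Over all species 64.5% rose with a median of 1.57, so the shares of MLT1 (59%) and of MMERVK10 and RLTR10 (69.2%) were near that of all species. The lowest family medians belonged to MMERVK9 and RLTR9 (2 of 14 species higher, median 0.57), RMER19 (1 of 4, 0.57), ERVB (8 of 19, 0.73) and RLTR44 and RLTR45 (4 of 8, 0.76). RLTR13F, an LTR of the RLTR13 group, had the largest fitted change of a single species (5.38 ± 1.51). It went from 0, 0, 0 and 3.50 CPM to 34, 73.7, 8.44 and 9.23 CPM. With P4 libraries at 0, the fitted size and its rank depend on the 1 unit added to each value. RLTR13A1 (4.99 ± 1.78) and LTR87 (5.15 ± 1.86) likewise had at most 1 P4 library above 0. The only species lower outside genes was MER90, an old ERV1 LTR, with 44.9, 29.3, 16.2 and 19.9 CPM in P4 and 41.9, 0, 21.4 and 10.8 CPM in P5 (log2 change -1.84 ± 0.85, limma adjusted p = 0.048). Its groups overlapped, and the quasi-likelihood test of edgeR gave an adjusted p of 0.298. The call was also lost without the block on replicate number.

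Summed over all loci, in and outside genes, the direction of the species depended on the scaling. With the authors' values 55 of 650 species (8.46%) rose and 138 (21.2%) fell at a limma FDR of 0.05, with a median log2 change of -0.30 over all species. With each library scaled to the same total, 117 rose and 33 fell, and with median-ratio scaling 207 rose and 19 fell. With the authors' values in pairs 3 and 4 alone 46 rose and 31 fell, without pair 2 these were 52 and 50, and without the block on replicate number 27 and 36. The species that rose with the authors' values were mostly internal regions, 33 of 55. Of the 135 internal regions among the 650 species tested, 33 (24.4%) rose and 26 (19.3%) fell. Of the 515 LTR species, 22 (4.27%) rose and 112 (21.7%) fell. ETn and MusD elements rose in 4 of 5 species (median 1.74), MMERGLN elements in 3 of 3 (1.49), VL30 elements in 3 of 5 (1.26), the IAPEY group in 5 of 9 (0.90) and IAP internal regions in 4 of 8 (0.67).

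IAPEY5_I-int had the largest rise of a species total, from 18.7, 11.7, 12.1 and 14.7 CPM in P4 libraries 1 to 4 to 284, 261, 160 and 51.2 CPM in P5 libraries 1 to 4. The groups did not overlap, and the log2 change was 3.46 ± 0.43 (SE; limma adjusted p = 1.72e-13). IAPLTR4_I (3.36 ± 0.51), IAPLTR3-int (3.13 ± 0.35), IAPEy-int (2.82 ± 0.39) and MuRRS-int (2.64 ± 0.26) followed. MMERVK10C-int rose by 1.60 ± 0.23 and RLTR1B-int by 1.45 ± 0.23. IAPEY4_I-int did not pass the test (0.27 ± 0.25, limma adjusted p = 0.423). MERVL-int rose outside genes while its total fell (log2 change -0.64 ± 0.23, limma adjusted p = 0.026), and its loci outside genes held 0.275% of its signal in P4 and 10.6% in P5. In CPM the MERVL-int total was 2947, 2876, 3132 and 3221 in P4 and 1551, 981, 3170 and 2997 in P5. The difference lay in P5 libraries 1 and 2, it was -0.04 in pairs 3 and 4, and with median-ratio scaling it was 0.00079.

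The largest falls of species totals belonged to small, old groups of 3 to 60 loci, which were nearly all measured inside genes. They were RMER3D3 (-3.20 ± 0.98), LTR108c_Mam (-3.0 ± 0.73), LTR44 (-2.55 ± 0.92), MER68C (-2.44 ± 0.54) and LTR9D (-2.31 ± 0.47). LTR9D had 105, 67, 100.3 and 80.4 CPM in P4 and 12.8, 3.43, 46.5 and 42.5 CPM in P5, with no overlap between the groups. The values were lowest in P5 libraries 1 and 2, at or near 0 in all 5 species except for MER68C in library 1 (32.0 CPM) and LTR9D in library 1. In pairs 3 and 4 alone the changes were -0.15, -0.33, -0.75, -0.55 and -1.01, and LTR9D alone of the 5 still passed the test. Without the block on replicate number none of the 5 falls, nor that of the MERVL-int total, passed.

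**Figure D3:**
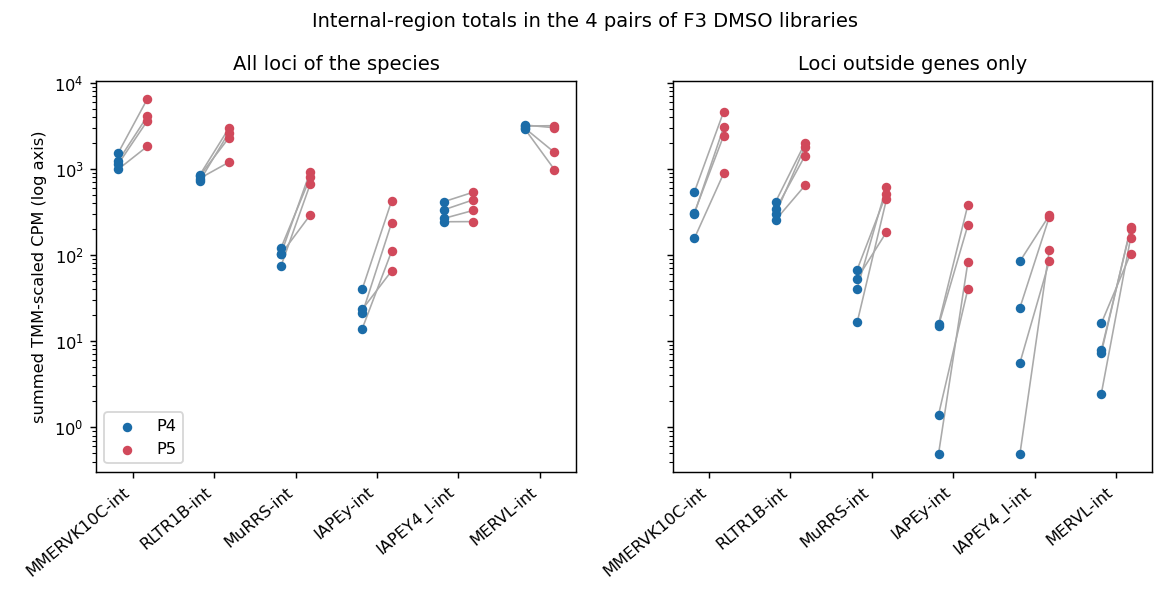
CPM (log axis) of named species in each of the 8 libraries, P4 and P5, for all loci (left) and for loci outside genes (right), with lines joining libraries of the same number. MERVL-int has between 2876 and 3221 CPM over all loci in the P4 libraries, and outside genes it goes from between 2.46 and 16.1 CPM in P4 to between 104 and 209 CPM in P5.

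At the level of single loci, 105038 passed the filter on low values, and 261 (0.248%) rose and 398 (0.379%) fell in P5 at a limma FDR of 0.05. The median log2 change over all tested loci was -0.40 with the authors' values, 0.03 with a common total, 0.21 with median-ratio scaling, 0.08 with array weights and 0.22 in pairs 3 and 4 alone, so its sign depended on the setting. The split depended on place. Of 18182 tested loci outside genes 161 (0.885%) rose and 2 (0.011%) fell, and of 86856 inside genes 100 (0.115%) rose and 396 (0.456%) fell. The split also moved with the scaling, to 603 higher and 737 lower with a common total and to 989 higher and 814 lower with median-ratio scaling. With the loci outside genes scaled to their own total, 121 of them were higher and 187 lower. Internal regions made up 152 of the 261 loci that rose (58.2%), against 11.6% of the loci not called. The P5 libraries did not overlap with the P4 libraries at 248 of the loci that rose and at 309 of those that fell. Over all tested loci every P5 library lay above at 2.32% and below at 6.96%. The calls were made from the same values, so this separation was favoured by the choice of loci. The number of calls was fragile. Without pair 1 there were 0, without pair 2 there were 147, without pair 3 there were 4118 and without pair 4 there were 2632, and without the block on replicate number there were 67 higher and 85 lower. Pairs 3 and 4 alone gave 2598 higher and 3490 lower, and array weights gave 5617 and 3890. EdgeR's quasi-likelihood test gave 174 higher and 9 lower, its likelihood ratio test 2938 and 137, and DESeq2 1008 and 223, with no adjusted p for 50900 of the 105038 loci. All 257 higher loci that could be fitted in pairs 3 and 4 alone were higher there too (median log2 change 4.38), and all 398 lower loci were lower (median -1.05), although these pairs had also entered the calls.

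The loci that rose had few or no reads in P4. Their median level was 0.122 CPM in P4 and 22.7 CPM in P5. At 111 of the 261 no P4 library had a read, as at 11169 of the 104379 loci not called. A locus without reads in P4 could pass the filter only through P5, so a low level in P4 is partly built in. RLTR10-int had the most, 33 of 379 tested loci (8.71%, against 0.248% of all tested loci), followed by MMERVK10C-int with 18 of 460, RLTR44-int with 13 of 120, MMVL30-int with 12 of 214, MTC with 11 of 3575 (0.308%, near the share over all loci), RLTR1B-int with 10 of 232 and MuRRS-int with 6 of 69. The MLT1F1 copy shown above, on chromosome 3 at a distance of 17678 bases from 2010110G14Rik, had no read in any P4 library and 122, 74.2, 31.4 and 17.5 CPM (247, 173, 227 and 76 reads) in the P5 libraries. It was at least 65.2-fold higher in P5, with P4 set to a floor of 3 reads per library (limma adjusted p = 0.00149). The RLTR10-int copy at chr16:86196426-86197453 likewise had 0 reads in P4 and 120, 218, 497 and 39 reads in P5, at least 61.4-fold higher. The MMERVK10C-int copy at chr7:44154043-44156019, at 824 bases from Gm45136, had 0, 0, 4 and 2 reads in P4 and 367, 525, 401 and 60 reads in P5, with a log2 change of 7.23 ± 1.03.

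Inside genes, the largest rises also began from 0. The MTC copy shown above, in an intron of Clta, a clathrin light chain, had 0 reads in P4 and 158, 74, 125 and 54 reads in P5, at least 37.1-fold higher. The RLTR44-int copy at chr4:118995440-118996413, in an intron of Gm12861 and Gm12865, had 0 reads in P4 and 17, 332, 666 and 207 reads in P5, at least 77.4-fold higher. An RLTR44-int copy at chr14:74308125-74310007, in an intron of Gm49171, was at least 33.7-fold higher. The MERV1_I-int copy at chr3:92137162-92138624, in an intron of Lelp1 and AC138676.1, was at least 88.4-fold higher, with 36, 549, 379 and 114 reads in P5. Its high level in P5 library 2, 235 CPM against 17.7 to 52.4 CPM in the others, sets most of that value. The higher loci had 77 host genes of 11361 with tested loci (0.678%), and none of these belonged to the gene lists examined, which is too low a share to read an absence from lists of at most 29 such genes. The genes with more than 2 such loci were Gm12861 and Gm12865 together, Snhg11, D10Wsu102e and Gm26573.

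With the authors' scaling 2 loci outside genes fell, and both were LTR copies with at most 2 reads in any P5 library. The RLTR11A2 copy shown above, which lies directly beside Gm37218, had 83, 23, 83 and 43 reads in P4 and 0 in every P5 library, at least 16.8-fold lower with P5 at the floor of 3 reads per library (limma adjusted p = 0.011). The MLT2B3 copy shown above had 79, 14, 48 and 32 reads in P4 and 0, 0, 0 and 2 in P5, a log2 change of -5.02 ± 1.08. In both copies no P5 library reached the lowest P4 library. Among loci inside genes, the MLTR14 copy in Runx3, which encodes a transcription factor, had 83, 22, 91 and 53 reads in P4 and 0, 0, 0 and 12 in P5 (-5.09 ± 1.07). An ORR1B1 copy in an exon of Gm34078 followed with -4.81 ± 1.08 and an MTC copy in Tuba3a with -2.74 ± 0.54. An MTE2a copy in Uqcrc1, a subunit of mitochondrial complex III, had -2.56 ± 0.52. The falls in Tuba3a and Uqcrc1 were larger in pairs 1 and 2, and in pairs 3 and 4 alone they were -0.88 and -0.80. Without the block on replicate number the calls of the MLT2B3, MLTR14, ORR1B1, Tuba3a and Uqcrc1 copies were lost.

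The 398 loci that fell were strong loci within a limited set of transcribed genes. Their median level was 402 CPM in P4 and 148 CPM in P5, with a median log2 change of -1.61. They lay in introns (351) and exons (45), carried 123 gene labels and held 299 distinct sets of reads. Fkbp6, which acts in the piRNA pathway of the testis, hosted 52 of them, all of its 52 tested loci with 29 distinct sets of reads. Hat1, a histone acetyltransferase, hosted 23 of 23, Ndufs4, a subunit of mitochondrial complex I, 20 of 46, and Psmb1, a proteasome subunit, 16 of 17. Ccdc113 hosted 11 of 12, Dcaf13 10 of 12, Mrpl42, a protein of the mitochondrial ribosome, 8 of 8, Tsn 7 of 7 and Mael, a piRNA pathway protein, 6 of 6. Counting 1 gene per locus, 111 of 11361 genes with tested loci (0.977%) hosted lower loci. Among them were Dazl, Mael and Pou5f1, 3 of the 14 germ cell identity genes with tested loci, Fkbp6, Gtsf1 and Mael, 3 of the 26 piRNA genes, and Asns, the asparagine synthetase that the stress response induces, 1 of the 16 genes of the unfolded protein response list. The other lists, of 3 to 29 genes with tested loci, had none, and lists of this size hold too few genes to read an absence at that share.

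When the loci of each host gene were summed, no gene passed the limma test. Of 9611 genes 0 (0%) were called at a limma FDR of 0.05, with a smallest adjusted p of 0.214, while 1936 (20.1%) had an unadjusted p under 0.05, 846 (8.8%) higher and 1090 (11.3%) lower in P5. EdgeR's quasi-likelihood test also gave 0, with 1127 genes at an unadjusted p under 0.05, its likelihood ratio test gave 221 higher (2.3%) and 7 lower (0.0728%), and DESeq2 gave 608 higher (6.33%) and 208 lower (2.16%). The median log2 change over all genes was -0.35 with the authors' values, 0.13 with a common total, 0.31 with median-ratio scaling and 0.20 in pairs 3 and 4 alone, so the sign of the median depended on the scaling and on the pairs. The genes below named by lowest p are descriptions of values that did not pass. Slit3, a guidance ligand, had 89.0, 154, 86.3 and 129.9 CPM in P4 and 426, 529, 553 and 568 CPM in P5 (log2 change 2.21 ± 0.40, limma adjusted p = 0.214). Tgfbr1, a TGF-beta receptor, had 23.7, 23.5, 2.46 and 1.87 CPM in P4 and 301, 180, 75.8 and 54.9 CPM in P5. Slc24a3, an ion exchanger, had 0 in all P4 libraries and 124, 142, 41.9 and 92.8 CPM in P5, and Nav2, Tns3, Kcnb2 and Mgat5 were also at or near 0 in P4. In the somatic P6 libraries Slc24a3 had 117 ± 29.7 CPM, Nav2 97.0 ± 32.6, Tns3 92.9 ± 8.85, Mgat5 103 ± 40.7, Tgfbr1 83.6 ± 5.39 and Slit3 294 ± 82.7 CPM, while Kcnb2 had 1.34 ± 2.13 CPM. The part of somatic transcripts in these differences was not tested.

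On the other side, Cox7b2 had 2670, 1889, 896 and 986 CPM in P4 and 1207, 330, 187 and 202 CPM in P5 (-2.05 ± 0.38, limma adjusted p = 0.214). Cox7b2 encodes a subunit of cytochrome c oxidase. Its P5 library 1 lay within the range of P4. Ccdc113, a protein of cilia, had 3182, 2507, 1998 and 2083 CPM in P4 and 865, 463, 784 and 744 CPM in P5 (-1.79 ± 0.34). Cenpv, Pdk3, Ndufaf2, Anapc10 and Gtf2f2 were also among those with the lowest p, with values between -2.36 and -1.45. The genes with an unadjusted p under 0.05 differed in size between the directions. Those with higher values in P5 had a median length of 104.5 kb, 29 LTR loci and 4.04 CPM in P4, and those with lower values had 27.2 kb, 7 loci and 274 CPM, against 43.4 kb, 11 loci and 24.2 CPM over all genes tested.

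Pathway lists were described by their counts, since no member passed with limma or with edgeR's quasi-likelihood test. DESeq2 called Fkbp6, Mael, Tdrd12, Pou5f1, Asns and Tesc lower and Cst9, Esr1 and Col4a1 higher among the members, and the likelihood ratio test of edgeR called Col4a1 higher. Over all genes 43.2% had a positive log2 change with the authors' values (median -0.35) and 52.8% with a common total (median 0.13). Of 23 piRNA pathway genes 4 were positive and the median was -0.88, and with a common total 10 were positive and the median was -0.42. Fkbp6 had 64024, 59336, 56629 and 49086 CPM in P4 and 19798, 9180.2, 31699.6 and 21328 CPM in P5, with every P5 library below every P4 library (-1.61 ± 0.36, limma adjusted p = 0.214). Mael, with 6212, 5349, 5835 and 5709 CPM in P4 and 963, 633, 3051 and 2639.7 CPM in P5, showed the same order (-1.95 ± 0.45). Gtsf1, which acts with piRNAs in the nucleus, had -1.31 ± 0.35. In pairs 3 and 4 alone the changes of Fkbp6, Mael and Gtsf1 were -1.02, -1.02 and -1.04. The germ cell identity and silencing lists had medians near that of all genes. Of 13 germ cell identity genes 4 were positive (median -0.34), and 8 with a common total (median 0.07). Pou5f1, whose promoter drives the EGFP used for the sort, had 322, 417, 191 and 388 CPM in P4 and 49.7, 45.9, 107 and 161 CPM in P5 (-1.99 ± 0.54). Dazl had -1.98 ± 0.59, and in pairs 3 and 4 alone Pou5f1 had -1.05 and Dazl -0.91. Of 27 genes of DNA methylation and retrovirus silencing 8 were positive (median -0.35), and 14 with a common total (median 0.07), with Dnmt3l, the cofactor of de novo methylation, at -1.44 ± 0.53, Pphln1 at -1.72 ± 0.51 and Mphosph8 of the HUSH complex at -1.07 ± 0.34. These 3 had -0.78, -0.86 and -1.13 in pairs 3 and 4 alone.

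**Figure D4:**
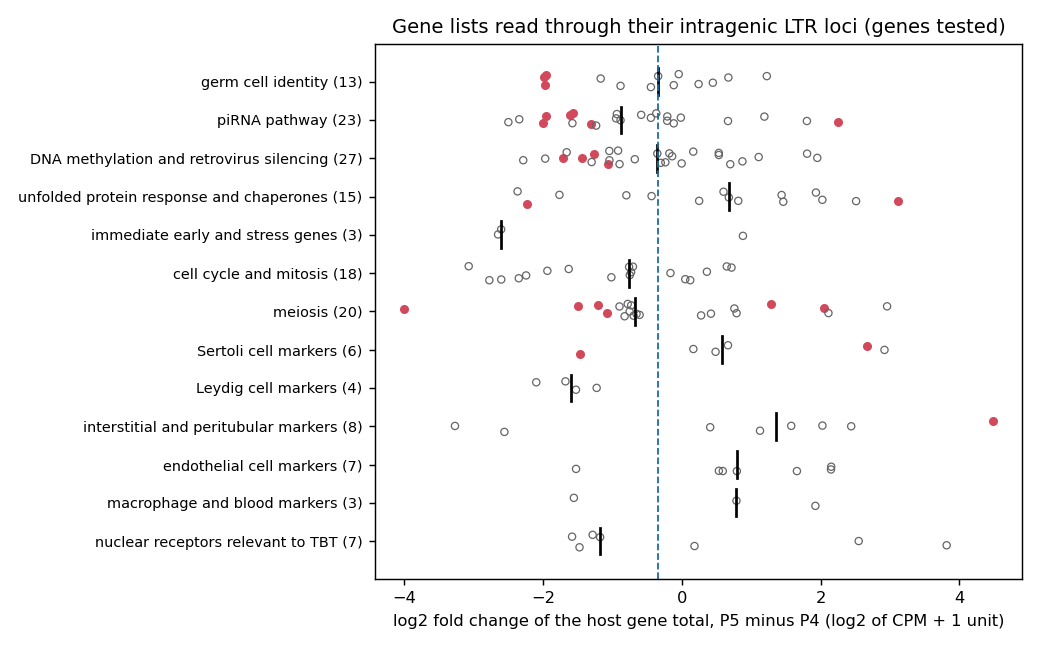
Log2 change of P5 against P4 of host gene totals, by gene list, with 1 point for each member tested (filled where the unadjusted p was under 0.05), a bar at the list median and a dashed line at the median of all tested genes (-0.35). The piRNA list has a median of -0.88 and the unfolded protein response list of 0.68, and no single member passed the limma test.

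Of 15 genes of the unfolded protein response and chaperones 10 were positive and the median was 0.68, and with a common total 11 were positive (median 1.12). Sel1l, of the degradation machinery of the endoplasmic reticulum, had 21.8, 2.93, 0.738 and 13.8 CPM in P4 and 47.8, 4.71, 102 and 229 CPM in P5 (3.12 ± 1.19), and Asns had -2.24 ± 0.62. In pairs 3 and 4 alone these were 5.35 and -0.86. The chaperone gene Hspa5 was not among the genes tested. Of 20 meiosis genes 8 were positive (median -0.67), and with a common total 8 were also positive (median -0.22). At an unadjusted p under 0.05 there were 2 meiosis genes higher in P5, Sycp1 (1.29 ± 0.51) and Sycp2 (2.05 ± 0.82), and 4 lower, Hormad1 (-1.08 ± 0.35), Syce3 (-1.50 ± 0.50), Syce2 (-1.20 ± 0.41) and Tex11 (-4.0 ± 1.51). Of 18 cell cycle genes 5 were positive (median -0.76), and 6 with a common total (median -0.30). Of 7 nuclear receptors chosen as relevant to TBT 3 were positive with either scaling (medians -1.18 and -0.84). Of 3 immediate early and stress genes 1 was positive with either scaling (medians -2.61 and -2.34). Among somatic lists the medians were 0.58 over 6 Sertoli cell genes, -1.60 over 4 Leydig cell genes, 1.35 over 8 interstitial and peritubular genes, 0.79 over 7 endothelial genes and 0.79 over 3 macrophage and blood genes. Col4a1, a basement membrane collagen, had 0 in all P4 libraries and 0.492, 1.71, 21.4 and 37.6 CPM in P5, against 1922 ± 339 CPM in P6. Cnn1 (-3.27 ± 1.49) and Acta2 (-2.56 ± 1.44), smooth muscle genes of the same list, had negative values, and none of the somatic genes passed the limma test. Of the 6 Sertoli cell genes 5 were positive, among them Erbb4 (2.92 ± 1.27) and Cst9 (2.67 ± 0.93), and Tesc was the negative one (-1.47 ± 0.40).

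The same contrast was set beside that of the TBT lineage, with 5 P4 and 5 P5 libraries in the same table. The share of signal outside genes was 6.32% ± 5.00 in P4 and 13.3% ± 10.3 in P5 (n = 5 each), higher in P5 in 4 of 5 pairs (exact paired permutation p = 0.13, two-sided). Shallow libraries weigh on these means. P4 libraries 5 and 9, with 833449 and 1187234 reads, had 11.4% and 12.1%, against 2.05% to 3.22% in P4 libraries 6, 7 and 8. P5 library 5, with 246520 reads, had 31.1%. Pair 9 was the pair not higher in P5, where its share was 11.9%. A test of the difference between the lineages, with limma and the replicate number as a block, called 0 of 98076 loci (0%, with 6293 or 6.42% at an unadjusted p under 0.05), 0 of 651 species totals (0%, with 9 or 1.38%) and 0 of 544 species totals outside genes (0%, with 12 or 2.21%), and edgeR's quasi-likelihood test also called 0 loci. On simulated data with 4-fold differences this test recovered 3.5% of changed loci, so it could miss such a difference at single loci. Fitted alone, the TBT lineage had 12 higher (0.013%) and 0 lower (0%) of 92457 loci, and 198 higher (37%) and 0 lower (0%) of 535 species totals outside genes. IAPEz-int outside genes went from 29.0 ± 19.7 to 624 ± 231 CPM there, with 5 of 5 pairs higher.

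F1 fetuses of DMSO dams, from a table normalized separately, gave another 4 pairs from other animals, and no test was made across the generations. Their share outside genes was 2.21% ± 0.0673 in P4 and 5.04% ± 0.956 in P5, higher in 4 of 4 pairs (exact paired permutation p = 0.13). Of the 352 species totals higher outside genes in F3, 337 were tested in F1, and all 337 were positive there, against 98.8% positive in F1 over all species tested in both. Of these, 311 were called in F1, where 78.3% of species were called higher and 0.199% lower. Of the 261 loci that rose in F3, 185 were tested in F1, and 182 were positive, against 38.2% of all loci tested in both. Of the 185, 131 were called, where F1 called 7.63% of all its loci higher and 8.96% lower. The RLTR10-int copy on chromosome 16 and the MERV1_I-int copy had 0 CPM in P4 of F1 as well. Loci without reads in P4 pass the F1 filter only through P5, so their positive sign is fixed by the filter. Of the 398 loci that fell, 397 were negative, against 61.8% of all loci tested in both, and 391 were called. In F1 the median log2 change was 2.44 for the loci that rose in F3 and -0.50 for those that fell. Their F3 values of 5.25 and -1.61 chose these loci, so the sizes are not compared. The MLT1F1 copy on chromosome 3 had 4.24 in F1 and the MTC copy in Clta had 3.82, while the RLTR11A2 and MLT2B3 copies that fell outside genes in F3 had 1.15 and -0.23 and did not pass. F1 libraries called 687 host genes (7.4%) higher and 717 (7.73%) lower of 9280, among them 11 genes of the unfolded protein response list higher and 1 lower, and 1 of the piRNA list higher and 11 lower. Lower were also 6 of 13 germ cell identity genes (1 higher), 5 of 26 silencing genes (0 higher), 5 of 20 meiosis genes (1 higher) and 1 of 17 cell cycle genes (0 higher). Of the somatic lists 2 of 8 interstitial and peritubular genes and 2 of 6 endothelial genes were higher, and the Sertoli, Leydig and macrophage lists had 0 called in either direction with limma. The part of these somatic genes in the other differences was not tested.

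**Figure D5:**
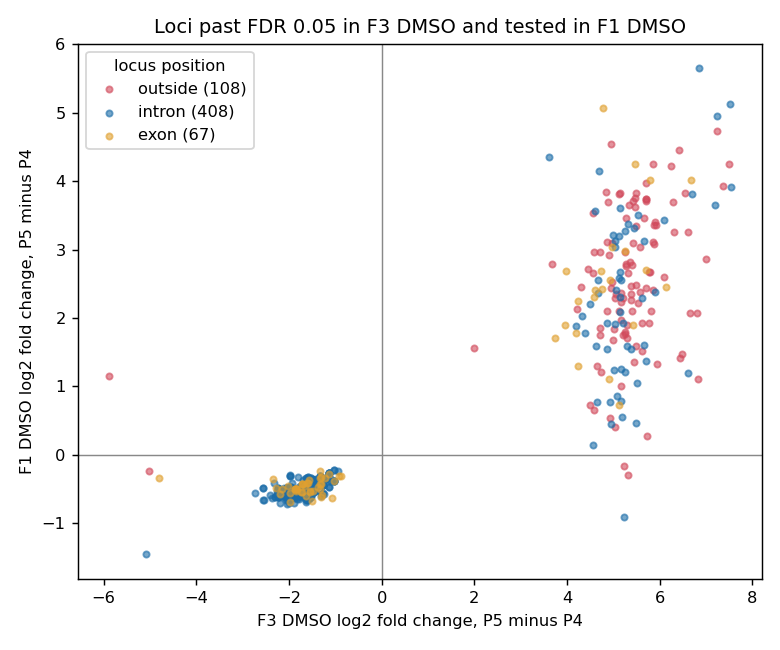
Log2 change of P5 against P4 in F1 DMSO (vertical axis) against that in F3 DMSO (horizontal axis), for loci called in F3 and tested in F1, coloured by whether they lie outside genes, in introns or in exons. Of the higher loci 182 of 185 are above 0 in F1, and of the lower loci 397 of 398 are below 0.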

How the data were processed

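Germ cell RNA of E18.5 testes was made into cDNA with an oligo(dT) primer and sequenced in the F3 DMSO groups P4 and P5, with 4 libraries each. The authors trimmed reads with Trim Galore, aligned them with STAR to GRCm38 (mm10), counted them per RepeatMasker LTR locus with a modified ERVmap and scaled them by TMM in edgeR, and they deposited a normalized signal in CPM for each locus. Versions of these tools are not given in the sources used here. Each library was divided by its smallest value above 0, and 100% of values came out as whole reads within a tolerance of 0.01 of a read, so depth is known as given in the report. Intervals from such counts would cover counting error only.

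Loci, species totals, species totals outside genes and host gene totals were put on the scale log2(value + 1 unit), and limma 3.58.1 in R 4.3.3 was fitted with trended variance, the replicate number as a block, a mean of at least 5 units (loci) or 20 units (totals), and Benjamini-Hochberg adjustment to an FDR of 0.05 over everything tested. A fold change on this scale understates the change of low loci. Same-numbered libraries deviated together at the loci, with correlations of 0.21, 0.10, 0.21 and 0.27, so the numbers were taken as pairing, although libraries 1 and 2 resembled each other as much, as did libraries 3 and 4. For species totals outside genes the same-number correlations were 0.106, 0.0081, 0.014 and 0.126, and the block chosen at the loci was kept there. Alternatives were no block, edgeR 4.0.16 quasi-likelihood and likelihood ratio tests and DESeq2 1.42.0 on recovered reads, pseudocounts of 0.25 and 4 units, other filters and scalings, array weights, each pair left out, and pairs 3 and 4 or 1 and 2 alone. On simulated data with 4-fold changes in 200 loci, the loci test recovered 54.5% of them. The simulated counts had a fixed negative binomial dispersion of 0.09 and no difference between pairs. In the same setting the test of host gene totals recovered 100% of changed genes, while the real fit called 0 of 9611. These shares may therefore overstate what the tests can find in the real libraries.

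Genes came from GENCODE vM21, overlaps from bedtools 2.31.1, and deposited starts, which count from 0, were raised by 1. The named loci are the 4 higher and 4 lower inside genes and 3 each way outside genes with the largest called changes in the same direction in all 4 pairs. Species are the 5 higher and 5 lower, totals and outside genes, plus RLTR1B-int, MMERVK10C-int, IAPEY4_I-int, MERVL-int and MuRRS-int. Genes are the 8 each way and up to 3 per list with the lowest p, and Hspa5. Of the named genes, 1 is not reported here. Places left unfilled went to the lowest p. The members and lists were chosen with earlier results of these data known. Python 3.11.15 with pandas 2.3.3, numpy 2.4.6 and matplotlib 3.10.9, and the R package data.table (1.17.8), were used throughout.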

Additional observations from a re-analysis of the deposited data

Results flagged for a closer look

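In 13 of 122 groups of 4 libraries tested, 1 library lay so far from the other 3 that its gap exceeded the 95% critical value of Dixon's test. Chance alone gives about 1 in 20 groups, but this rate does not hold for groups with 3 libraries at 0. There any value above 0 exceeds the critical value, as for RLTR13F, LTR87, RLTR13A1, MLTR14 and MLT2B3 below. Among species totals in P4, LTR108c_Mam was low in library 2 (24.0 CPM), LTR44 was low in library 1 (17.5 CPM) and MER68C was high in library 3 (86.1 CPM). Outside genes, RLTR13F (3.50 CPM) and LTR87 (0.467 CPM) had reads in P4 library 4 alone and RLTR13A1 (1.13 CPM) in P4 library 1 alone. MER34B-int outside genes was high in P5 library 1 (649.5 CPM, against 329 to 358 CPM in the others), and its fall of 0.72 on the log2 scale did not pass the test (limma adjusted p = 0.057). Among host genes, Nav2 was high in P4 library 2 (1.47 CPM) and Cox7b2 in P5 library 1 (1207 CPM, against 187 to 330 CPM). Among loci, the MERV1_I-int copy on chromosome 3 was high in P5 library 2 (235 CPM). Of the loci that fell, the MLTR14 copy in Runx3 (2.77 CPM), the ORR1B1 copy in Gm34078 (5.77 CPM) and the MLT2B3 copy on chromosome 2 (0.462 CPM) were highest in P5 library 4.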

How the results depend on the processing

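The share of signal outside genes was higher in P5 in each of the 4 pairs. The alternatives run for it were subsets of these pairs, so its direction could not turn. The difference lay between 9.30 and 15.9 percentage points with 1 pair left out. The number of loci called moved with every setting. It was 659 with the block on replicate number and 152 with no replicate block, 183 with the quasi-likelihood test, 3075 with the likelihood ratio test and 1231 with DESeq2, 0 and 3531 with pseudocounts of 0.25 and 4 units, 0 with no filter or a filter 4 times higher, 1340 with a common total and 1803 with median-ratio scaling. It was between 0 and 4118 with 1 pair left out, 6088 in pairs 3 and 4, 7250 in pairs 1 and 2, 9507 with array weights, 308 for loci outside genes and 350 for loci inside genes rescaled to their own totals. Host gene totals gave 228 calls with edgeR's likelihood ratio test and 816 with DESeq2, against 0 with limma and in the other settings. Species totals gave 193 calls, 63 with no replicate block, between 66 and 174 with 1 pair left out and 77 in pairs 3 and 4. Species totals outside genes gave 353 calls, 250 without the replicate block, between 233 and 380 with 1 pair left out, 53 in pairs 3 and 4 and 99 when rescaled to the total outside genes. The cause of these moves was not tested. Directions turned for host genes that had not passed the test: Mdm2 (0.12), Hsph1 (0.35) and Scarb1 (0.31) in pairs 3 and 4, Dusp1 (-0.37) and Adgrl4 (-1.04) in pairs 1 and 2, Scarb1 without pair 2 (0.0044, from -2.22 with 1 pair left out), Adgre1 without pair 4 (-0.26, up to 2.10 with 1 pair left out) and Ptprb with array weights (0.25). The MERVL-int total turned to 0.00079 with median-ratio scaling. The difference between the DMSO and TBT lineages gave 0 called loci in every setting run, also without TBT pairs 5 and 9, whose P4 libraries were the shallowest. Leaving these pairs out was chosen after seeing the data. Depth limits loci with few reads most: 111 of the loci that rose have no read in P4, so their fold is known only as a lower bound.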
